A study of Mus musculus with 12 samples.

Results

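The thin filament of the sarcomere, built of actin, has its barbed end in the Z-disc and its pointed end near the middle of the sarcomere, and 10 genes whose products set its length or keep it stable are described here in the tibialis anterior muscle of control and Smyd1 CKO mice. The 10 genes (Neb, Klhl40, Klhl41, Klhl31, Lmod1, Lmod2, Lmod3, Tmod1, Tmod4 and Cfl2) were taken by symbol from 23923 genes listed in every library, and 10 of the 10 were among the 12695 genes with at least 0.1 FPKM (sequenced fragments corrected for transcript length and for library size) in at least 6 of the 12 libraries. All mice were aged 6 weeks and of the strain C57BL6/J;129S1/SvImJ, and the authors state that work after their fiber measurements used male tissue only. Controls were Myf6 cre/+; Smyd1 flox/+ and CKO mice were Myf6 cre/+; Smyd1 flox/-, all with Rosa26 YFP/+, 6 mice in each group with 1 library per mouse. Both groups therefore carried the Cre driver, which is expressed from the Myf6 locus in muscle fibers, and 1 floxed Smyd1 allele, so that where Cre had acted the controls kept 1 intact allele and the CKO mice none. Smyd1 encodes a muscle-restricted histone methyltransferase that also acts on myosin in the sarcomere, and the comparison asks how transcript levels differ once it is lost from differentiated fibers. Because whole muscle was sequenced, fewer cells of a type and less RNA per cell cannot be told apart.

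Nebulin runs along the thin filament from the Z-disc and binds actin through a long series of repeats. Leiomodins help actin filaments start and lengthen at the pointed end, tropomodulins cap that end, and cofilin severs and shortens filaments. A small family of muscle BTB-Kelch proteins, which can act as adaptors of the cullin 3 ubiquitin ligase or as chaperones, binds nebulin and leiomodin and keeps them from being lost. In people, recessive mutations of NEB, KLHL40, KLHL41, LMOD3 and CFL2 cause nemaline myopathy, a muscle weakness named after the rods of Z-disc and thin-filament material that form in the fibers.

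The values were read as the authors deposited them and again after each library was divided by its median ratio to the typical library (median-ratio scaling), because the scale bears on every direction given here. Fold changes are on the log2(FPKM + 0.1) scale, and adjusted P values are limma's over all 12695 genes. As deposited, the median log2 fold change over the 12695 genes was 0.18 in CKO against control and 77.9% of genes lay above 0, and after scaling the median was 0.01 with 51.2% above 0. The targeted gene was checked first. Smyd1 ran from 32.9 to 47.1 FPKM in controls, with a median of 34.9, and from 27.8 to 39.9 in CKO mice, with a median of 33.5. The log2 fold change was -0.13 ± 0.12 (SE, limma adjusted P = 0.545) as deposited and -0.32 ± 0.08 (adjusted P = 0.0797) after scaling, where 5 of 6 CKO libraries lay below every control. A gene-level FPKM counts the whole transcript and does not isolate the deleted part, so it is a weak check of the labels. At the protein level, the authors report no detectable SMYD1 on western blots of CKO tibialis anterior.

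Several libraries stood apart. Control 1 had the highest total FPKM, 156610 against 110124 to 138454 in the other libraries. Its summed fibroblast markers came to 579 FPKM against 166 to 222 in the other controls and 213 to 334 in CKO mice, and its macrophage markers to 42.2 FPKM against 11.3 to 19.0 in the other controls and 15.4 to 24.2 in CKO mice. Slow-fiber markers (Myh7, Myl2, Tnni1 and 7 others) summed to 45.0 to 95.8 FPKM in controls. In CKO 1, CKO 3 and CKO 6 they summed to 210, 152 and 395 FPKM. In CKO 2, CKO 4 and CKO 5 they summed to 66.8 to 75.8 FPKM. As deposited, 8 of the 10 markers were higher in CKO at an unadjusted P below 0.05 and 0 were lower. The shares over all genes were 18.1% and 1.76%. After scaling 7 were higher and 1 lower, against 6.62% and 7.44% of all genes. Skeletal muscle markers were abundant in every library, with sums of 20530 to 34430 FPKM in controls and 24380 to 28580 in CKO mice. Of the 8 fast-fiber markers, 1 was higher and 0 lower as deposited, and 1 was higher and 5 lower after scaling. Schwann cell markers were higher for 3 of 6 and fibroblast markers for 2 of 6 as deposited, where 18.1% of all genes were, and for 0 and 1 of 6 after scaling. Smooth muscle, endothelial and macrophage markers, the 4 of 8 red blood cell markers that could be tested and the 3 of 6 heart muscle markers that could be tested had 0 genes past the unadjusted threshold on either scale. The heart muscle markers summed to 3.93, 3.29 and 4.49 FPKM in CKO 1, CKO 3 and CKO 6, the mice with high slow-fiber markers, and to at most 1.39 FPKM in the other libraries, and Nppb was listed at 0 in every library. The part of these differences in the results was not tested, except where a value without the library or with the slow-fiber level as a covariate is given.

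As deposited, 3 of the 10 genes (Klhl40, Klhl41 and Tmod1) were higher in CKO at an unadjusted P below 0.05, a threshold that 18.1% of all genes tested passed in that direction, and 0 were lower, against 1.76% of all genes. None passed an adjusted P below 0.05, which 2.02% of all genes passed as higher and 0.268% as lower. After scaling the same 3 genes remained higher at the unadjusted threshold, against 6.62% of all genes, and Klhl31, Lmod3 and Cfl2 were lower, against 7.44%, while again 0 of the 10 passed the adjusted threshold, which 0.764% of all genes passed as higher and 0.709% as lower. The median log2 fold change over the 10 genes was 0.10 as deposited and -0.08 after scaling, each below the median of all genes on the same scale. In none of the 10 genes did the groups separate fully. All 6 CKO values lay above all 6 control values in 2.23% of all genes as deposited and 0.788% after scaling, and below them in 0.189% and 0.74%.

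**Figure D1:**
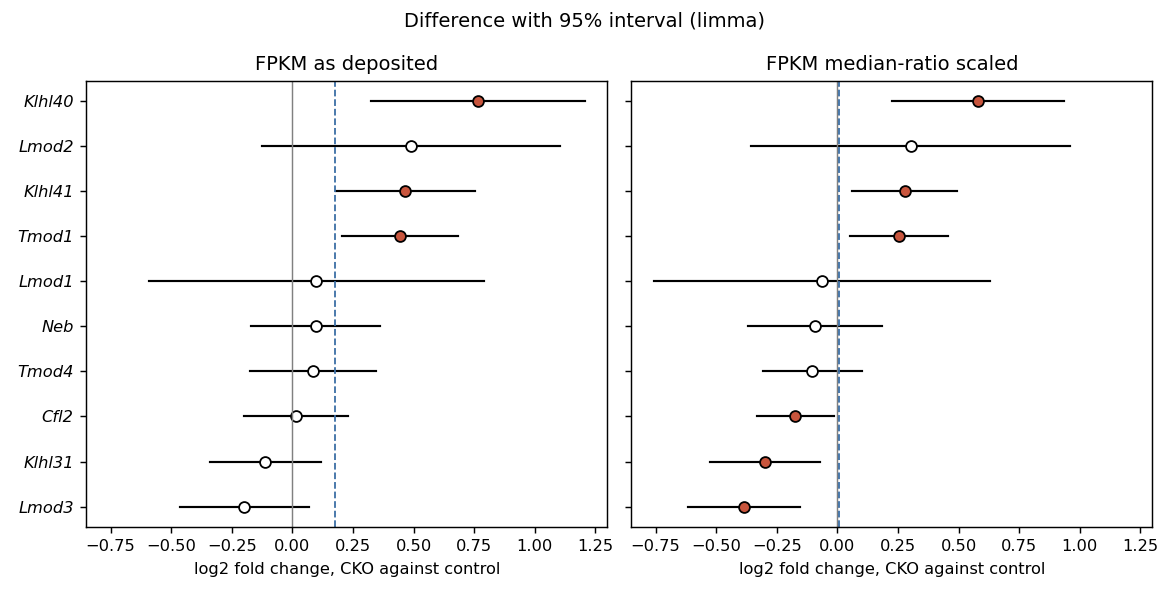
Log2 fold change (x axis, CKO against control) of the 10 genes (y axis) with 95% intervals from limma, filled where the unadjusted P is below 0.05, as deposited on the left and after median-ratio scaling on the right; the dashed line marks the median of all 12695 genes. The intervals of Klhl40, Klhl41 and Tmod1 lie above 0 on both sides, and those of Klhl31, Lmod3 and Cfl2 lie below 0 only after scaling.

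In control muscle Neb was by far the most abundant of the 10, at 554 ± 63.4 FPKM (SD, n = 6), which put it at rank 23 of the 12695 genes. Klhl41 followed at 124 FPKM, then Klhl31 at 94.2, Tmod4 at 83.9 and Cfl2 at 71.8 FPKM, all within the first 169 ranks. Klhl31 lay above Tmod4 in 5 of 6 controls but in 2 of 6 CKO mice, so these neighbours were not separated. Lmod3, Tmod1 and Lmod2 formed a middle group at 34.8, 34.1 and 29.8 FPKM. Within it Lmod3 exceeded Tmod1 in 3 of 6 controls and in 0 of 6 CKO mice, and Tmod1 exceeded Lmod2 in 4 of 6 mice of each group. Klhl40 was lower at 9.72 FPKM, and Lmod1, at 0.65 FPKM, stood at rank 8931.

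**Figure D2:**
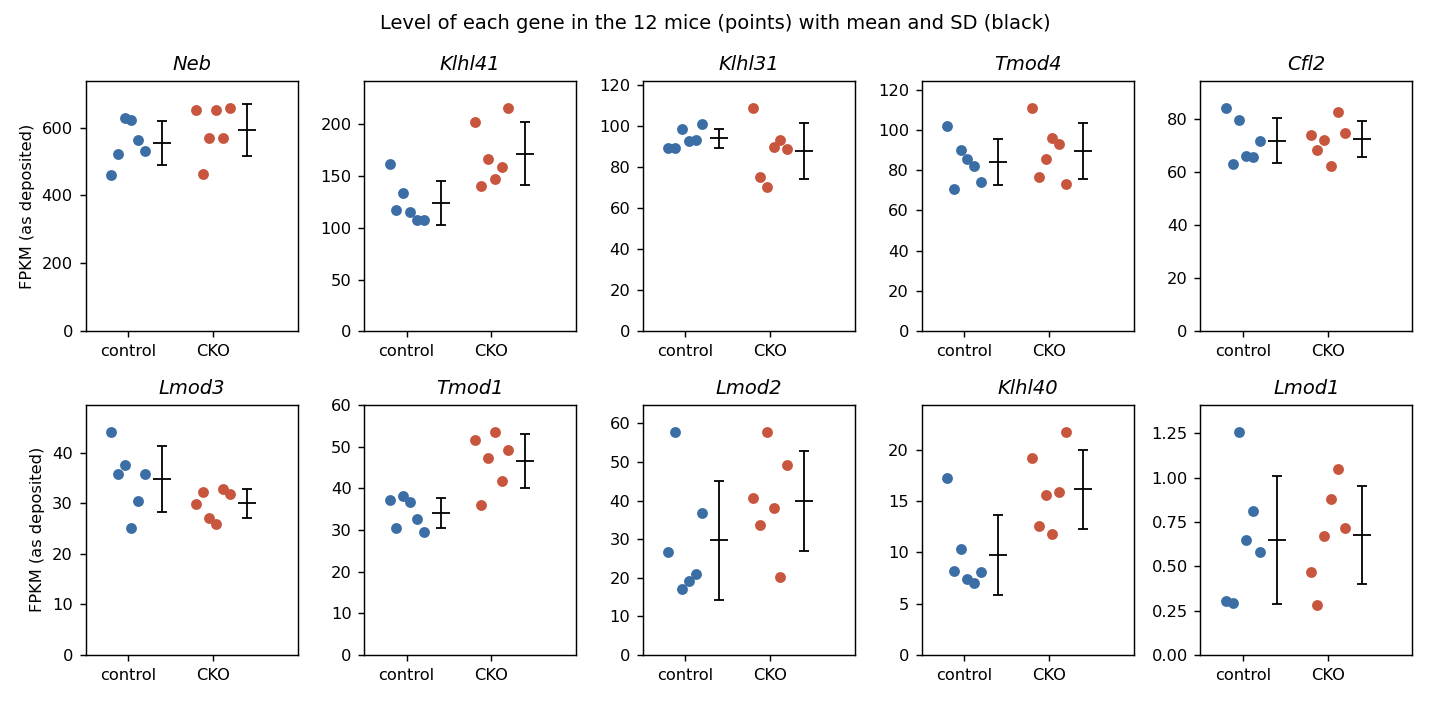
FPKM as deposited (y axis, from 0) of each of the 10 genes in the 6 control and 6 CKO mice; points are single mice and the black marks are the mean and SD. Klhl40, Klhl41 and Tmod1 have higher CKO means with at least 1 control inside the CKO range, and the other genes overlap widely.

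Neb (chromosome 2, 52136647 to 52378474, minus strand, GRCm38), which encodes the giant filament-length protein nebulin, differed by less than the spread between mice. It ran from 461 to 627 FPKM in controls, with a median of 548, and from 463 to 658 in CKO mice, with a median of 610. Its log2 fold change was 0.10 (95% interval -0.17 to 0.36, limma adjusted P = 0.691) as deposited and -0.09 (-0.37 to 0.18, adjusted P = 0.822) after scaling, so its sign turned with the scale. The annotation places 3 further genes inside or across Neb, of which Gm13522 and Gm22095 are on the opposite strand. Whether strand was used in counting is not given in the sources used here.

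Klhl40 (chromosome 9, 121777607 to 121783818, plus strand) and Klhl41 (chromosome 2, 69670120 to 69684230, plus strand) encode the BTB-Kelch proteins that stabilise nebulin and, for Klhl40, leiomodin 3. Both were higher in CKO at the unadjusted threshold, and they moved together from mouse to mouse. The 250 bases before the annotated start of each gene are shown because these are the members that varied most alike, with E-boxes (CANNTG, read by the MyoD family and other bHLH factors) and the MEF2 site in capitals. The sequences are RefSeq's on GRCm38.p6, at chr9:121777357-121777606 and chr2:69669870-69670119, both on the plus strand.
Klhl40: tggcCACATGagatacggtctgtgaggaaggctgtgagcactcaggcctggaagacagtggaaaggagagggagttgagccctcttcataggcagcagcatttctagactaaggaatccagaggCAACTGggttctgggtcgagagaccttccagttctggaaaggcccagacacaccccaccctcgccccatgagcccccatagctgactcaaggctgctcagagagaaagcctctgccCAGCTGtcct
Klhl41: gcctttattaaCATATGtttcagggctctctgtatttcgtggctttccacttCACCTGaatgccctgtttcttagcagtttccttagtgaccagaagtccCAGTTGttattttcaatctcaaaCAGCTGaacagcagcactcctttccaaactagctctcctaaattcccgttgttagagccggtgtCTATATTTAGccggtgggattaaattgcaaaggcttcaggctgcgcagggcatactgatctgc
The Klhl40 window held 3 E-boxes, the nearest 10 to 5 bases before the start, and the Klhl41 window held 4 E-boxes and 1 MEF2 site at 63 to 54 bases before the start. Over both strands, 66.2% of 32841 promoter windows of the same length held an E-box and 2.92% held a MEF2 site, so the E-box in particular is common. Windows were found for 8 of the 10 genes, of which 6 held an E-box, 1 a MEF2 site, 2 (Lmod1 and Tmod1) the MCAT element GGAATG, found in 12.6% of all windows, and 0 a CArG box (1.47%) or a TATAAA box (12.4%). A match describes the letters only.

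Klhl40 ran from 6.99 to 17.3 FPKM in controls, with a median of 8.16, and from 11.8 to 21.8 in CKO mice, with a median of 15.8. All 6 CKO values lay above the control median, and 5 of the 6 controls lay below every CKO value, the exception being control 1 with 17.3 FPKM. The log2 fold change was 0.77 ± 0.21 (SE), or 1.70-fold, with a limma adjusted P of 0.0655, and 0.58 ± 0.17 (adjusted P = 0.108) after scaling. Without control 1 the difference grew to 0.95 with an adjusted P of 0.00376, and on the scaled values to 0.71 with an adjusted P of 0.012. Of the 12 leave-outs this was the only 1 with an adjusted P below 0.05 on either scale. The largest were 0.161 as deposited and 0.23 after scaling. Dropping control 1 also took all genes higher at that threshold from 257 to 1075 as deposited and from 97 to 180 after scaling. Control 1 is the library with the high fibroblast and macrophage markers. With all 12 libraries kept, the adjusted P as deposited was 0.00423 with limma's sample weights. Those weights took all genes higher at an adjusted P below 0.05 from 257 to 1400.

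Klhl41 ran from 108 to 162 FPKM in controls, with a median of 116, and from 140 to 216 in CKO mice, with a median of 163. As for Klhl40, control 1 was the highest control and the other 5 controls lay below every CKO mouse. The log2 fold change was 0.47 ± 0.14 (SE), or 1.38-fold, with a limma adjusted P of 0.083, and 0.28 ± 0.10 (adjusted P = 0.215) after scaling. Without control 1 it was 0.55 with an adjusted P of 0.0159 as deposited. This was the only 1 of the 12 leave-outs below 0.05, and the largest adjusted P was 0.199. After scaling 0 of 12 passed, the smallest being 0.121.

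Klhl41 varied with the slow-fiber markers, and Klhl40 less closely. With group means removed, Pearson's r between the scaled log2 level and the slow-marker level over the 12 libraries was 0.78 for Klhl41 and 0.50 for Klhl40. Klhl40 was thus near Lmod2 (0.41) and Tmod1 (0.36), and the other members lay from -0.29 (Lmod3) to 0.21 (Neb). Between Klhl40 and Klhl41 r was 0.85. In CKO 1, CKO 3 and CKO 6, the mice with high slow-fiber markers, Klhl41 was at 202, 167 and 216 FPKM, and in the other CKO mice it was at 140, 147 and 159 FPKM. With the slow-marker level as a covariate, an analysis chosen after seeing the data, the log2 fold change of Klhl40 was 0.55 (limma adjusted P = 0.374) and that of Klhl41 was 0.29 (adjusted P = 0.439) as deposited, and 0.39 (adjusted P = 0.534) and 0.13 (adjusted P = 0.746) after scaling. Of the 3 genes, Klhl40 and Tmod1 stayed past the unadjusted threshold as deposited with this covariate and none did after scaling. Over all genes tested, the covariate took those higher at an adjusted P below 0.05 from 257 to 15 as deposited. After scaling it took them from 97 to 13, so the loss of calls was not particular to these genes.

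**Figure D3:**
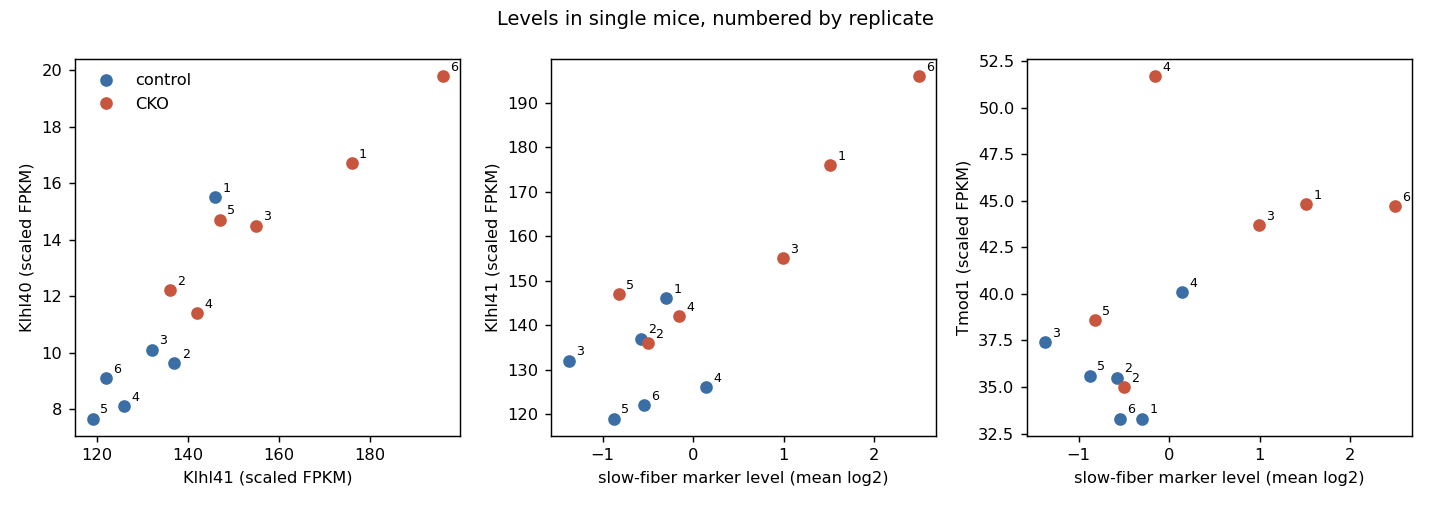
Scaled FPKM of Klhl40 against Klhl41 (left), and of Klhl41 (middle) and Tmod1 (right) against the mean log2 slow-fiber marker level, one point per mouse with its replicate number, controls in blue and CKO mice in red. Control 1 sits among the CKO mice at 15.5 scaled FPKM of Klhl40, and CKO 1, CKO 3 and CKO 6 sit at the high end of the slow-fiber scale.

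Klhl31 (chromosome 9, 77636500 to 77660127, plus strand), a further muscle BTB-Kelch gene, showed the opposite tendency. It ran from 89.3 to 101 FPKM in controls and from 70.5 to 109 in CKO mice, with medians of 93.0 and 89.3. The control values kept within 1.14-fold of each other and the CKO values within 1.55-fold as deposited, but within 1.42-fold and 1.46-fold after scaling, and in the deposited values 4 of 6 CKO mice lay below the control median. The log2 fold change was -0.11 (limma adjusted P = 0.571) as deposited and -0.30 ± 0.11 (unadjusted P = 0.0129, adjusted P = 0.202) after scaling, where 6 of 6 CKO mice lay below the control median.

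Lmod1 (chromosome 1, 135324807 to 135368065, plus strand), the leiomodin of smooth muscle, was barely detected, at 0.29 to 1.26 FPKM in controls and 0.28 to 1.05 in CKO mice. Its log2 fold change was 0.10 with a 95% interval from -0.59 to 0.79, so a difference of either sign was not detectable at this level. The 8 smooth muscle markers, Lmod1 among them, summed to 20.8 to 30.7 FPKM in controls and 21.3 to 28.1 in CKO mice, and Cnn1 and Actg2 stayed below 1 FPKM throughout.

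Lmod2 (chromosome 6, 24597762 to 24605414, plus strand), the leiomodin of heart that is also made in skeletal muscle, was the most variable of the abundant members. It ran from 17.1 to 57.7 FPKM in controls, with a median of 23.9, and from 20.2 to 57.9 in CKO mice, with a median of 39.5. Although 5 of 6 CKO mice lay above the control median, the groups shared nearly the same range. The log2 fold change was 0.49 (95% interval -0.12 to 1.1, limma adjusted P = 0.354) as deposited and 0.30 (adjusted P = 0.737) after scaling. Leaving out control 2, the highest control, gave 0.71 (unadjusted P = 0.0126, adjusted P = 0.184), and leaving out CKO 5, the lowest CKO mouse, gave 0.67 (unadjusted P = 0.0261, adjusted P = 0.184). Leaving out control 3, the lowest control, gave 0.36 (adjusted P = 0.496), and leaving out CKO 3, the highest CKO mouse, gave 0.37 (adjusted P = 0.524).

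Lmod3 (chromosome 6, 97238534 to 97252759, minus strand), the main leiomodin of skeletal muscle, ran from 25.1 to 44.2 FPKM in controls and from 25.9 to 32.9 in CKO mice, with medians of 35.7 and 30.8. All 6 CKO values lay below the control median, and control 4 was the only control below the lowest CKO value. The log2 fold change was -0.20 (limma adjusted P = 0.381) as deposited and -0.39 ± 0.11 (unadjusted P = 0.00274, adjusted P = 0.0995) after scaling. Without control 4 the scaled value was -0.47 with an adjusted P of 0.0372. This was the only 1 of the 12 leave-outs below 0.05 on the scaled values, and the largest adjusted P among them was 0.2135.

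Tmod1 (chromosome 4, 46038935 to 46116032, plus strand) encodes the tropomodulin shared by heart and skeletal muscle. It ran from 29.6 to 38.1 FPKM in controls, with a median of 34.6, and from 36.0 to 53.6 in CKO mice, with a median of 48.2. In 5 of 6 CKO mice it exceeded every control, and CKO 2 alone lay inside the control range. Its log2 fold change was 0.44 ± 0.11 (SE), or 1.36-fold, and its limma adjusted P of 0.0539 was the smallest of the 10 genes. After scaling it was 0.26 ± 0.10 (adjusted P = 0.225). Leaving out control 1, CKO 2 or CKO 5 brought the adjusted P as deposited to 0.0226, 0.0188 and 0.0466. These were the only 3 of the 12 leave-outs below 0.05, and the largest adjusted P was 0.138. After scaling 0 of 12 passed, the smallest being 0.104. With the slow-marker level as a covariate the log2 fold change was 0.35 (adjusted P = 0.319) as deposited and 0.19 (adjusted P = 0.656) after scaling. That covariate lowered the number of calls over all genes too, as given above. Tmod1 overlaps Tstd2 on the opposite strand by 1287 bases, and Tstd2 was at 1.23 FPKM in controls and 1.57 in CKO mice, far below Tmod1.

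Tmod4 (chromosome 3, 95124476 to 95129209, plus strand), the tropomodulin of fast skeletal muscle, ran from 70.7 to 102 FPKM in controls and from 73.0 to 111 in CKO mice. Its log2 fold change was 0.09 (limma adjusted P = 0.717) as deposited and -0.10 (unadjusted P = 0.298) after scaling, so no difference was detectable and the sign turned with the scale. Cfl2 (chromosome 12, 54858809 to 54862877, minus strand), the muscle cofilin, was similar in both groups as deposited, at 71.8 ± 8.46 FPKM in controls and 72.4 ± 6.81 in CKO mice (SD, n = 6). After scaling it was 75.4 ± 3.43 and 67.0 ± 5.28 (SD, n = 6), 5 of 6 CKO mice lay below every control, and the log2 fold change was -0.17 ± 0.08 (limma adjusted P = 0.315). Its unadjusted P was 0.036, and it missed the unadjusted threshold when control 3, control 6, CKO 1, CKO 2, CKO 3 or CKO 4 was left out, with log2 fold changes of -0.17 to -0.14 in these.

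Ratios of 2 genes within a mouse do not depend on how libraries are scaled, and 8 were tested with a two-sided exact permutation test over 924 assignments of the mice, adjusted over the 8. The ratio of Tmod4 to Tmod1, the fast tropomodulin against the shared one, was lower in CKO. It ran from 2.33 to 2.74 in controls and from 1.48 to 2.23 in CKO mice, so that all 6 CKO values lay below all 6 controls. The mean was 2.46 ± 0.16 in controls and 1.94 ± 0.29 in CKO (SD, n = 6), a log2 difference of -0.36 with an exact P of 0.00217, the smallest the design allows, and an adjusted P of 0.0173. The log2 fold change was 0.44 for Tmod1 and 0.09 for Tmod4 as deposited, and 0.255 and -0.10 after scaling. The ratio is thus not a result separate from the higher Tmod1. How often other pairs of genes separate fully was not counted. In CKO 2, CKO 4 and CKO 5, whose slow-fiber markers were within the control range, the ratio was 2.13, 1.80 and 2.23, below the lowest control. In CKO 1, CKO 3 and CKO 6, with high slow-fiber markers, the ratio was 2.15, 1.82 and 1.48, also below the lowest control. The part of the slow-fiber level in this ratio was not tested.

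**Figure D4:**
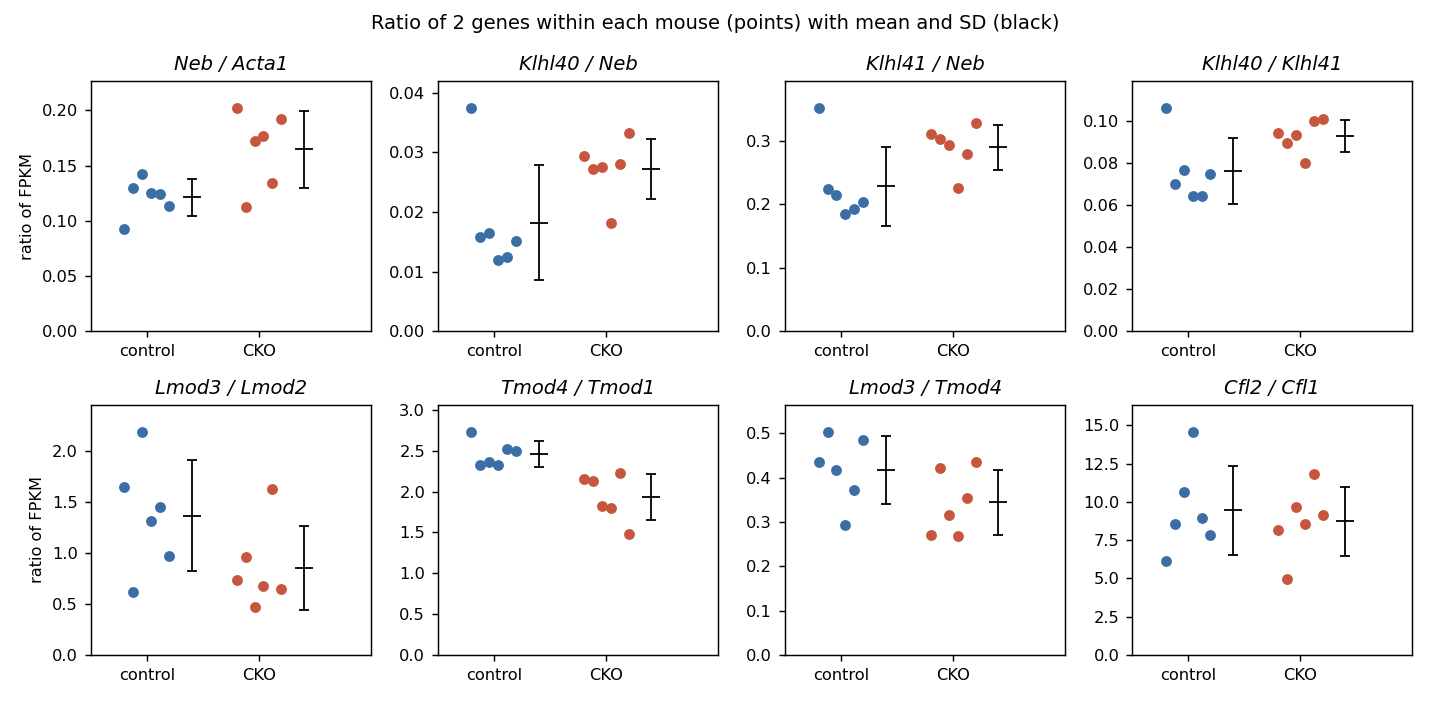
Ratio of FPKM (y axis, from 0) for the 8 pairs of genes in the 6 control and 6 CKO mice; points are single mice and the black marks are the mean and SD. Only the Tmod4 to Tmod1 panel shows groups that do not overlap, 2.33 to 2.74 in controls against 1.48 to 2.23 in CKO.

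The other 7 ratios did not pass after adjustment. Neb to Acta1, nebulin against its skeletal actin, was 0.12 ± 0.02 in controls and 0.16 ± 0.03 in CKO (exact P = 0.0303, adjusted P = 0.0831), with 4 of 6 CKO mice above every control. Klhl40 to Neb (log2 difference 0.67, exact P = 0.0433), Klhl41 to Neb (0.37, exact P = 0.0519) and Klhl40 to Klhl41 (0.30, exact P = 0.0368) each had an adjusted P of 0.0831, and in each of them control 1 was the highest of the 12 mice. Without control 1 the exact P was 0.00433 for each of these 3 ratios, before adjustment. Over all 12 leave-outs the exact P reached 0.0736, 0.0931 and 0.0693 in that order. Lmod3 to Lmod2 was 1.37 ± 0.55 in controls and 0.85 ± 0.41 in CKO (exact P = 0.0909, adjusted P = 0.121). The ratios of Lmod3 to Tmod4 (log2 difference -0.28, adjusted exact P = 0.153) and of Cfl2 to the non-muscle cofilin Cfl1 (-0.11, adjusted exact P = 0.673) overlapped widely.

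Of the 68 other genes tested in 5 lists around these members (nemaline myopathy, actin filament ends and turnover, the Z-disc, BTB-Kelch proteins and the cullin 3 ligase, and SRF-driven transcription), 11 passed the unadjusted threshold as higher and 4 as lower in the deposited values, where 18.1% and 1.76% of all genes did. After scaling 5 were higher and 13 lower, against 6.62% and 7.44% of all genes. The counts of higher genes were thus near the share over all genes on both scales. Those of lower genes lay above it on both scales, and no set test was run. The same shares apply to each list below. Past the adjusted threshold 2 rose as deposited, both in the list of actin filament ends and turnover (26 genes, 3 higher and 1 lower unadjusted). These were Ssh3 and Ssh2, slingshot phosphatases that activate cofilin, with log2 fold changes of 0.95 (limma adjusted P = 0.0332) and 0.44 (adjusted P = 0.0419). On the scaled values they were 0.81 (adjusted P = 0.0881) and 0.26 (adjusted P = 0.256). The 2 calls as deposited became 0 without control 4, control 6, CKO 1, CKO 3, CKO 4 or CKO 6. Ssh3 was low, at 0.2 FPKM in controls and 0.47 in CKO mice. In the same list Capza2, a subunit of the barbed-end capping protein, had a log2 fold change of -0.32 (adjusted P = 0.211) as deposited and fell after scaling (-0.51, adjusted P = 0.0318), a call that became 0 genes without control 3, control 4, control 5, CKO 1, CKO 3 or CKO 6.

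Among 10 other nemaline myopathy genes Tpm3 and Tnnt1 passed the unadjusted threshold as higher, near the 18.1% of all genes, and Adssl1 and Acta1 as lower, against 1.76%. After scaling 1 was higher and 5 were lower, against 6.62% and 7.44%. Tpm3 and Tnnt1, slow tropomyosin and slow troponin T, are also slow-fiber markers and had wide CKO ranges of 3.74 to 29.8 and 2.17 to 62.4 FPKM. Adssl1, the muscle adenylosuccinate synthase, was at 92.4 ± 3.67 FPKM in controls and 72.6 ± 16.3 in CKO (SD, n = 6), with a log2 fold change of -0.37 (limma adjusted P = 0.121). Acta1, skeletal actin, was at 4604 and 3669 FPKM, with a log2 fold change of -0.33 (limma adjusted P = 0.218).

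The nebulin family and Z-disc list had 2 of 10 tested genes higher and 0 lower as deposited, near the 18.1% and 1.76% of all genes, and 0 higher and 1 lower after scaling. The 2 higher genes were the Z-disc gene Myoz3, with a log2 fold change of 0.58 (limma adjusted P = 0.0941) as deposited and 0.39 (adjusted P = 0.378) after scaling, and the alpha-actinin Actn2, with 0.43 (adjusted P = 0.226) and 0.24 (adjusted P = 0.625). Xirp2, next by P, did not pass, with 0.25 (adjusted P = 0.263) and 0.06 (adjusted P = 0.86).

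Of 14 BTB-Kelch and cullin 3 genes, 2 were higher and 0 lower as deposited, again near 18.1% and 1.76%, and 1 was higher and 3 lower after scaling, against 6.62% and 7.44%. Klhl30 had a log2 fold change of 0.67 (limma adjusted P = 0.146) as deposited and 0.48 (adjusted P = 0.317) after scaling, and Klhl22 had 0.39 (adjusted P = 0.177) and 0.20 (adjusted P = 0.618). Cul3, the ligase scaffold, did not pass as deposited, at -0.19 (adjusted P = 0.286), and was lower at the unadjusted threshold after scaling, at -0.37 (adjusted P = 0.0537).

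The SRF and MRTF list, whose factors control many actin genes, had 2 of 9 genes higher and 1 lower as deposited and 1 higher and 2 lower after scaling, with the higher genes again near the 18.1% of all genes. Mef2c had a log2 fold change of 0.47 (limma adjusted P = 0.083) as deposited and 0.29 (adjusted P = 0.318) after scaling, and Mef2a had 0.27 (adjusted P = 0.16) and 0.09 (adjusted P = 0.752). Egr1, an immediate-early gene, had -1.92 (adjusted P = 0.0777) and -2.09 (adjusted P = 0.0928), and spanned 0.45 to 10.1 FPKM among the controls alone.

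Likeness across mice was described as Pearson's r of scaled log2 values with group means removed, over 12 libraries that also share their depth and composition. Among the 10 genes, Neb varied most with Tmod1 (0.73), Klhl31 (0.65) and Lmod1 (0.63), and Lmod3 with Cfl2 (0.55), while Lmod3 and Tmod1 varied in opposite directions (-0.72). For each member, 7960 other genes of at least 1 FPKM were searched and the 2 highest r are given. The highest of so many values over 12 libraries are high by selection alone, so they do not show that 2 genes are linked. The most alike were Tnrc6c and Rab11fip3 for Neb (0.95 and 0.94), Ctsz and Ssr3 for Klhl40 (0.90 and 0.88) and Kif5b and Eda2r for Klhl41 (0.89 and 0.89). For Klhl31 they were Tbc1d15 and Klhl24 (0.91 and 0.91), for Lmod1 Kcnj12 and Hnrnpu (0.92 and 0.89), for Lmod2 Prkcq and Plekhm2 (0.91 and 0.91) and for Lmod3 D17H6S53E and Apip (0.94 and 0.91). Tmod1 was most like the fast myosin Myh4 (0.93) and Rab3gap1 (0.92), Tmod4 like Cyp27a1 and Itgb5 (0.89 and 0.85), and Cfl2 like Mapk6 and Prosc (0.91 and 0.87).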

How the data were processed

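Total RNA of tibialis anterior was freed of ribosomal RNA (ScriptSeq Complete Gold) and sequenced by the authors, 1 library per mouse. The authors aligned reads allowing at most 2 mismatches, discarded reads with several positions, and deposited FPKM per gene symbol; the submitters' processing notes name TopHat2 2.0.10, Cufflinks 2.1.1 and the build mm9. The authors tested counts with DESeq; counts were not used here. Groups came from the labelled genotypes. Of 23950 rows, 27 with a date in place of a symbol were dropped. Read depth is unknown; depth relative to control 1, from the steps between low FPKM values, ran from 0.984 to 1.77, so no counting interval was given.

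From the deposited FPKM, log2(FPKM + 0.1) was fitted for genes reaching 0.1 FPKM in 6 or more libraries with limma 3.58.1 (R 4.3.3, trend, no covariate), with P adjusted by Benjamini-Hochberg over the 12695 genes. Fold changes of low genes are understated by the added 0.1. The limma fit was tested on simulated data. The fit was repeated after median-ratio scaling, and within-mouse ratios were compared by exact permutation. Alternatives were another pseudocount, other filters, quantile normalization, no trend, sample weights, a replicate block, each library left out and, added after seeing the data, the slow-fiber level as a covariate. Named genes were the 10 members, Smyd1, the ratio genes, the 3 smallest P in each list, and the 2 genes most alike to each member; Acta1, Tstd2 and marker genes are named for their bearing on those values. The members and lists were chosen with earlier results of these data known. Gene positions came from GENCODE M21 (GRCm38), matched by symbol, since the files hold no coordinates.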

Additional observations from a re-analysis of the deposited data

Results flagged for a closer look

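In 6 of 56 sets of 6 libraries examined, 1 library lay apart, where the gap to the nearest library was large for the group's range. In all 6 this was control 1, set against the other 5 controls. The 56 sets included sets of CKO mice, which do not hold control 1. Its share of the control sets was therefore higher than 6 of 56. Control 1 had 17.3 FPKM of Klhl40 as deposited and 15.5 after scaling, and the lowest Neb after scaling, 414 FPKM. Its ratios of Klhl40 to Neb, Klhl41 to Neb and Klhl40 to Klhl41 were 0.0375, 0.352 and 0.106, each the highest of the controls. Chance flags about 1 in 20 such sets, and these 6 share 3 genes and 1 library. Control 1 also had the highest fibroblast and macrophage markers of the 12 libraries, at 579 and 42.2 FPKM, and their part in these values was not tested.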

How the results depend on the processing

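Leaving out each library in turn gave log2 fold changes of 0.04 to 0.17 for Neb, 0.67 to 0.95 for Klhl40, 0.40 to 0.55 for Klhl41, -0.18 to -0.05 for Klhl31, -0.06 to 0.30 for Lmod1, 0.36 to 0.71 for Lmod2, -0.29 to -0.12 for Lmod3, 0.40 to 0.51 for Tmod1, 0.02 to 0.14 for Tmod4 and -0.025 to 0.062 for Cfl2, so that Lmod1 and Cfl2 changed sign. After scaling, Lmod1 ran from -0.25 to 0.12. Of the 10 genes, 3 to 4 were higher and 0 to 1 lower unadjusted, and 0 to 3 higher and 0 lower adjusted. The ratios ran from 0.35 to 0.53 for Neb to Acta1, 0.57 to 0.90 for Klhl40 to Neb, 0.32 to 0.50 for Klhl41 to Neb, 0.26 to 0.40 for Klhl40 to Klhl41, -0.90 to -0.53 for Lmod3 to Lmod2, -0.38 to -0.22 for Lmod3 to Tmod4 and -0.22 to 0.045 for Cfl2 to Cfl1 on the log2 scale. Tmod4 to Tmod1 stayed between -0.40 and -0.28, with an unadjusted exact P of at most 0.00866. In the lists around the members, 8 to 18 genes were higher and 2 to 7 lower unadjusted, and 0 to 3 higher and 0 to 1 lower adjusted. Over all genes tested, 1724 to 3416 were higher and 193 to 320 lower unadjusted. Adjusted, 88 to 1075 were higher and 18 to 69 lower.

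Median-ratio scaling reversed Neb (-0.092), Lmod1 (-0.062), Tmod4 (-0.10) and Cfl2 (-0.17), made 3 members lower instead of 0, and gave 5 list genes higher and 13 lower unadjusted, and 0 higher and 1 lower adjusted. Quantile normalization reversed Lmod1 (-0.13) and Cfl2 (-0.031), made 1 member lower, and gave 7 list genes higher and 12 lower, with 0 higher adjusted. Sample weights reversed Lmod1 (-0.044) and brought Klhl40 (0.95), Klhl41 (0.57) and Tmod1 (0.51) past the adjusted threshold, 3 members instead of 0. Of the list genes, 20 were higher and 9 lower unadjusted, and 6 and 2 adjusted. Over all 12695 genes, the weights took the higher genes from 2300 to 3704 unadjusted and from 257 to 1400 adjusted. The lower genes went from 224 to 318 unadjusted and from 34 to 115 adjusted. The rise was thus not particular to the members and lists. A filter of at least 1 FPKM brought Tmod1 (0.44, adjusted P = 0.0451) past it, so 1 member, and left 1 list gene higher adjusted. No filter left 0 list genes higher adjusted, and limma without trend left 1. With the slow-fiber level as a covariate, chosen after seeing the data, 5 list genes were higher and 2 lower unadjusted and 0 higher adjusted. On scaled values that covariate left 0 members higher and reversed Lmod1 (0.11) and Lmod2 (-0.011), and the list genes higher unadjusted numbered 1. Over all genes, that covariate took those higher at an adjusted P below 0.05 from 257 to 15 as deposited and from 97 to 13 on scaled values. The loss of calls was thus not particular to the members and lists. The cause of these changes was not tested. A pseudocount of 1 changed no call of a member.

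Whether the replicate numbers pair the mice is not given by the labels. Deviations of same-numbered mice correlated at -0.09 to 0.16, above 0.1 in 2 of 6 pairs. The mean was 0.04, against -0.009 for other pairs, and 5 of 12 mice correlated best with their own number. These values are too small and mixed to decide whether mice were paired. With the replicate number as a block, Klhl40 (0.77, adjusted P = 0.0323) and Tmod1 (0.44, adjusted P = 0.0404) passed the adjusted threshold, 2 members instead of 0, and 0 list genes were higher adjusted (on scaled values 8 were higher unadjusted). On scaled values the block left 2 members lower unadjusted, Cfl2 (-0.17, adjusted P = 0.376) no longer passing. The ratios were also tested by flipping the signs of the differences within the 6 same-numbered pairs. This blocked exact P, before adjustment, was 0.0938 for Neb to Acta1 (0.43), 0.0625 for Klhl40 to Neb (0.67) and Klhl40 to Klhl41 (0.30), and 0.0312 for Lmod3 to Tmod4 (-0.28) and Tmod4 to Tmod1 (-0.36). The smallest P this test allows is 0.0312, against 0.00217 for the unpaired exact test. The 2 ratios at that limit therefore cannot be ranked by it, nor set against their unpaired P. Mice are the only replicates and read counts were not used, so the precision of the low genes Lmod1 and Ssh3 cannot be given.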
